A study of Mus musculus with 4 samples.

Results

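Prostaglandins and leukotrienes are lipid messengers that cells make on demand from arachidonic acid, a fatty acid that phospholipases cut from membranes. Cyclooxygenases turn it into the precursor of the prostaglandins, and 5-lipoxygenase, helped by its activating protein, turns it into leukotriene A4. Neutrophils process leukotriene A4 mainly to leukotriene B4, which attracts further neutrophils, whereas mast cells and eosinophils make cysteinyl leukotrienes. Here 10 genes of these routes were followed by their symbols, all 10 found among the 24706 genes of each library: the cyclooxygenases Ptgs1 and Ptgs2, the prostaglandin E synthase Ptges, the leukotriene genes Alox5, Alox5ap, Lta4h and Ltc4s, the leukotriene B4 receptor gene Ltb4r1, the lipoxygenase gene Alox15, and Pla2g7, whose enzyme inactivates platelet-activating factor, another lipid messenger.

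The study removed PD-1, an inhibitory receptor encoded by Pdcd1, from myeloid cells and asked how gene expression in these cells changes. There were 4 RNA-seq libraries labelled as mouse myeloid cells, 2 of genotype wt (called here wt1 and wt2) and 2 of genotype cko (cko1 and cko2). The floxed Pdcd1 exon is shared by both groups if the controls are PD-1f/f mice, as the figures of the study say, while its methods call the controls wild-type. The cko mice (PD-1f/f; LysM-Cre) carry in addition Cre recombinase under the lysozyme M promoter, which is active in neutrophils, monocytes and macrophages. The sources differ on the material: CD11b+ cells sorted from the liver of pups at postnatal day 3, or whole livers at postnatal day 2. Nothing states whether a library stands for 1 animal or several, so p-values measure only the spread between these libraries.

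The libraries held between 17691501 and 22212407 counted reads, and a gene 1 kb long gained 0.0450 to 0.0565 FPKM per read, where FPKM is a read count scaled to gene length and to the counted reads of the library. Pdcd1 had 28.5 and 34.7 FPKM in wt1 and wt2 and 17.1 and 21.4 FPKM in cko1 and cko2, lower in both cko libraries but still present. Lyz2, the lysozyme M gene itself, had 31306 and 32147 FPKM in wt and 10422 and 8127 FPKM in cko. Only the cko mice carry Cre under the promoter of this gene, and the part of the Cre allele in the Lyz2 values was not tested. Markers of late neutrophils dominated every library, with a summed level of 161036 and 136971 FPKM in wt and 110237 and 91586 FPKM in cko over 11 genes, none at 0. Summed markers of erythroid cells and of hepatocytes were lower in cko. Those of endothelial and stromal cells overlapped, with 38.8 and 36.0 FPKM in wt and 33.1 and 36.8 FPKM in cko. The 13 erythroid markers summed to 3772 and 2367 FPKM in wt and 1444 and 1548 FPKM in cko, with 12 of 13 log2 fold changes negative and 6 of these with an unadjusted p under 0.05. The 14 hepatocyte markers summed to 90.9 and 151 FPKM in wt and 64.0 and 78.9 FPKM in cko, with 9 of 10 tested negative and 2 of these with an unadjusted p under 0.05 (background 4.95% lower). The part of these cells in the members' values was not tested. Transcripts of 4 Y-linked genes summed to 43.9 FPKM in wt2 and to at most 0.0195 FPKM in the other libraries. Xist, the RNA of the inactive X chromosome, had 0.0119 FPKM in wt2 and 4.91, 6.67 and 7.98 FPKM in wt1, cko1 and cko2. In both respects wt2 stood apart, as a male profile beside female ones. The labels give no sex, and the part of sex in the group differences was not tested.

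Groups were compared with limma on log2(FPKM + 1), over the 10779 genes that averaged 1 FPKM or more, with Benjamini-Hochberg adjustment over all of them. Of the 10 genes, 9 were tested, and Ltc4s was below the minimum. None of the 9 passed |log2FC| of at least 1 with an adjusted p under 0.05 (background 0.0% of all tested genes, where limma called 0 genes, 1768 had an unadjusted p under 0.05 and voom on reads called 2), and none passed |log2FC| above 1 with an unadjusted p under 0.01 (background 2.29% of all tested genes, 1.88% higher and 0.408% lower in cko). By the latter rule 203 genes of the whole table were higher and 44 lower in cko (82.2% higher). The split was 146 and 65 (69.2%) after median-of-ratios scaling and 150 and 79 (65.5%) after quantile normalization. It was 350 and 17 (95.4%) with erythroid and hepatocyte genes removed. Every result with these genes removed also has the remaining values scaled to an equal FPKM sum per library. For 2 of the 9, Alox5ap and Pla2g7, the unadjusted p was under 0.05, both higher in cko (background 11.4% in that direction and 16.4% in either). Both cko libraries lay above both wt libraries for 3 of the 9 (Ptgs2, Alox5ap and Pla2g7, background 33.6%) and below them for 3 (Ptgs1, Alox5 and Alox15, background 18.0%), so that 6 of the 9 stood beside a background of 51.6%. The groups overlapped for Ptges, Lta4h and Ltb4r1. The median log2 fold change of the 9 was -0.01, against 0.09 over all tested genes. The smallest two-sided p that exact permutation allows for 2 against 2 libraries is 0.333.

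The promoters of the 2 cyclooxygenase genes are shown because these genes encode enzymes of the same reaction and differed widely in how much their levels varied over the libraries, as described next. Ptgs1 is known as the constitutive gene and Ptgs2 as the inducible gene. The sequences are the 250 bases before the RefSeq start (GRCm38.p6, plus strand, chr1:150099781-150100030 for Ptgs2 and chr2:36230176-36230425 for Ptgs1), and in both cases the annotated gene in the files begins at the next base. Capitals mark matches to any of 10 motifs.
Ptgs2: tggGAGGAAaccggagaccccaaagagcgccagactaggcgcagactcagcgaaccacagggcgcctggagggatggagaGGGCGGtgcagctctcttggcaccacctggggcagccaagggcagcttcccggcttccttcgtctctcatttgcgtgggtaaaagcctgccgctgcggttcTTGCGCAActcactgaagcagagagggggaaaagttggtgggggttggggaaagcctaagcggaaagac
Ptgs1: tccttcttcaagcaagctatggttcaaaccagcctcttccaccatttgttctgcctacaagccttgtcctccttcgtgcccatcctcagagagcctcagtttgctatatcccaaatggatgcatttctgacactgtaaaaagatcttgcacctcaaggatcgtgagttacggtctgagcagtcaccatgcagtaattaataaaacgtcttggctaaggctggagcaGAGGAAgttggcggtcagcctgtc
A further 30 bases lie just past the start of Ptgs2 (chr1:150100033-150100062, bases 3 to 32 counted from the start), with an overlapping CRE core and E-box in capitals.
Ptgs2 site: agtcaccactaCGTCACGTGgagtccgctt

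The motifs were searched on both strands in windows of 300 bases, 250 before and 50 after the start, of which the RefSeq table held 32851. It held a window for 8 of the 10 genes, all but Alox5ap and Alox15. The C/EBP motif TTGCNNAA occurred in the Ptgs2 window alone of the 8, from base -69 to -62, and in 10.8% of all windows. The CRE core TGACG (bases 14 to 18, minus strand) and the E-box CACGTG (17 to 22), which share 2 letters of the Ptgs2 sequence, were also in no other of the 8 windows and in 20.8% and 7.15% of all windows. The PU.1 core GAGGAA, named for a myeloid transcription factor, occurred in 7 of the 8 windows (all but Pla2g7) and in 28.3% of all windows, at -247 to -242 in Ptgs2 and at -24 to -19 in Ptgs1. GGGCGG, the SP1 motif, occurred in 5 of the 8 (Ptgs2, Ptges, Alox5, Ltb4r1 and Pla2g7) and in 35.7% of all windows, and the GAS motif TTCNNNGAA in Pla2g7 and in 8.30% of all windows. No window of the 8 held the NF-κB consensus (8.46% of all windows), TGACGTCA (1.79%), the AP-1 motif TGANTCA (7.81%) or TATAAA (13.6%). Bases beyond the 250 before and the 50 after the start were not searched, so a missing match says nothing about sites farther away. A match describes the letters of the window and not a bound site.

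**Figure D1:**
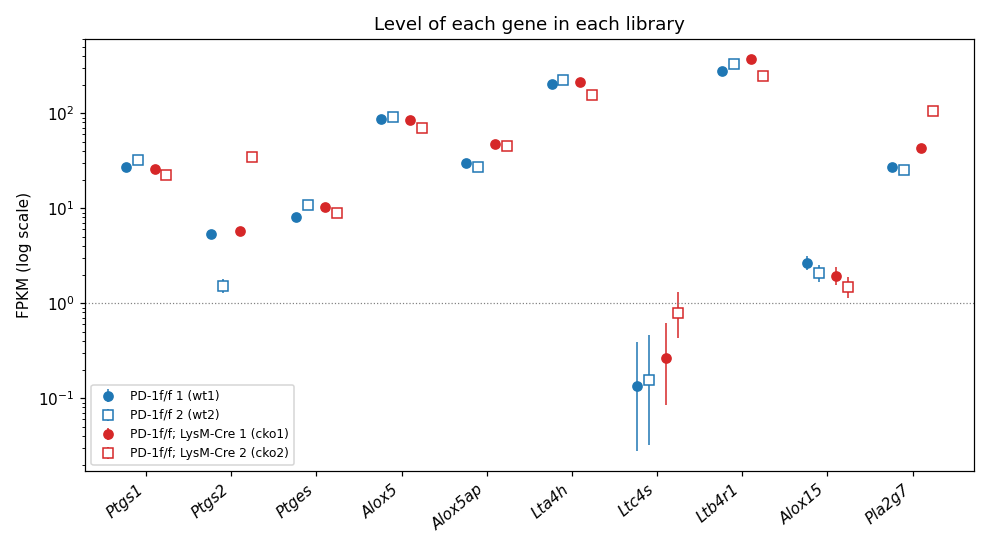
FPKM (log axis) of the 10 genes in wt1, wt2 (blue) and cko1, cko2 (red), with 95% Clopper-Pearson intervals of the reads that cover counting error only. Ltb4r1 and Lta4h lie above 150 FPKM in every library, Ltc4s below the dotted line at 1 FPKM, and Ptgs2 runs from 1.52 in wt2 to 34.8 in cko2.

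The highest mean levels among the members were those of Ltb4r1, Lta4h and Alox5, all of the leukotriene B4 route, while Alox5ap of that route ranked lower. By mean FPKM over the 4 libraries the order was Ltb4r1 (307), Lta4h (200), Alox5 (83.7), Pla2g7 (50.2), Alox5ap (37.4), Ptgs1 (26.9), Ptgs2 (11.9), Ptges (9.53), Alox15 (2.03) and Ltc4s (0.333). FPKM is a level per length, so genes can be set side by side. The 4 values of Ltb4r1 lay above all those of Lta4h, those of Lta4h above all those of Alox5, those of Ptges above all those of Alox15 and those of Alox15 above all those of Ltc4s. Each other pair of neighbours in the order, from Alox5 down to Ptges, had overlapping ranges. Among all tested genes Ltb4r1 stood at percentile 98.9, Lta4h at 98.1, Alox5 at 94.9 and Alox15 at 19.5. The gene ontology terms in the files put Alox5, Alox5ap, Lta4h and Ltc4s under leukotriene biosynthetic process, a direct term of 12 genes, and Ptgs1, Ptgs2 and Ptges under prostaglandin biosynthetic process, a direct term of 22 genes. Inflammatory response, a direct term of 357 genes, held Ptgs1, Ptgs2, Alox5, Ltb4r1 and Pla2g7.

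Ptgs1 encodes cyclooxygenase 1, which most tissues make at a steady level (ENSMUSG00000047250, chromosome 2 from 36230426 to 36252272, plus strand, GRCm38, 11 exons in its principal transcript). It had 27.3 and 31.9 FPKM in wt1 and wt2 and 26.2 and 22.4 FPKM in cko1 and cko2, from 1538 to 2354 reads. The cko values were below the wt values by a small step, with 26.2 in cko1 next to 27.3 in wt1. The groups differed by -0.27 on the log2 scale (standard error 0.17, limma adjusted p = 0.446). Within the groups, wt2 minus wt1 was 0.22 and cko2 minus cko1 was -0.22 on the same scale. Platelets and mast cells are known to carry Ptgs1. The 12 megakaryocyte and platelet markers summed to 27.5 and 12.6 FPKM in wt and 11.6 and 18.8 FPKM in cko. Of these, Pf4 had 6.88 to 17.2 FPKM while Gp5, Gp6 and Tubb1 were at 0 in at least 1 library. The 16 markers of mast cells, basophils and eosinophils summed to 403 and 224 FPKM in wt and 239 and 359 FPKM in cko, with Fcer1a and Il5ra at 0 in at least 1 library. The part of these cells in the Ptgs1 values was not tested.

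Ptgs2 encodes cyclooxygenase 2, made in macrophages and neutrophils after inflammatory stimuli (ENSMUSG00000032487, chromosome 1 from 150100031 to 150108227, plus strand, 10 exons). It had 5.32 and 1.52 FPKM in wt1 and wt2 (541 and 131 reads) and 5.80 and 34.8 FPKM in cko1 and cko2 (498 and 2823 reads). Only cko2 stood far above the rest, and cko1 hardly differed from wt1: their counting intervals, 5.30 to 6.33 and 4.88 to 5.79 FPKM, overlapped. The libraries of a group differed from each other by 3.50-fold in wt (wt1 over wt2) and 6.01-fold in cko (cko2 over cko1), while the mean of cko was 5.94-fold that of wt. The log2 fold change was 1.97 (standard error 0.84, limma adjusted p = 0.322), and without cko2 it was 0.77. The pooled within-group SD of Ptgs2 on the log2 scale was 1.37, larger than that of 99.4% of the tested genes.

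The balance of the 2 cyclooxygenases therefore differed by library. Of their summed FPKM, Ptgs2 made up 16.3% in wt1, 4.55% in wt2, 18.1% in cko1 and 60.9% in cko2. Ptgs2 exceeded Ptgs1 in cko2 alone, at 1.56 times its level. The 3 tested genes whose log2 profile over the 4 libraries lay closest to Ptgs2, by Euclidean distance after centring, were Ccl4 (distance 0.17), Bcl2a1a (0.27) and Il1b (0.39). Ccl4, a chemokine gene, had 6.41, 1.61, 6.39 and 42.1 FPKM in wt1, wt2, cko1 and cko2, and Il1b, which encodes interleukin 1 beta, had 98.1, 43.2, 151 and 594.5 FPKM. Bcl2a1a belongs to a family of near-identical copies among which reads may be split, so its value is uncertain. The nearest to Ptgs1 were AC159261.1, Mettl25 and Fli1, at distances of 0.0038 to 0.017, of which Fli1, a transcription factor gene of blood cells, had 79.0, 90.9, 75.4 and 64.2 FPKM.

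Ptges encodes microsomal prostaglandin E synthase 1, which makes prostaglandin E2 from the product of the cyclooxygenases (ENSMUSG00000050737, chromosome 2 from 30889471 to 30929863, minus strand, 3 exons). It had 8.13 and 10.9 FPKM in wt1 and wt2 and 10.2 and 8.87 FPKM in cko1 and cko2. The cko values lay inside the range of wt. The groups differed by 0.01 on the log2 scale (standard error 0.20, limma adjusted p = 0.980), and its sign turned under median-of-ratios scaling and quantile normalization. Ptges did not share the high value that Ptgs2 had in cko2, where Ptges was at 0.932 times the wt mean and Ptgs2 at 10.2 times.

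**Figure D2:**
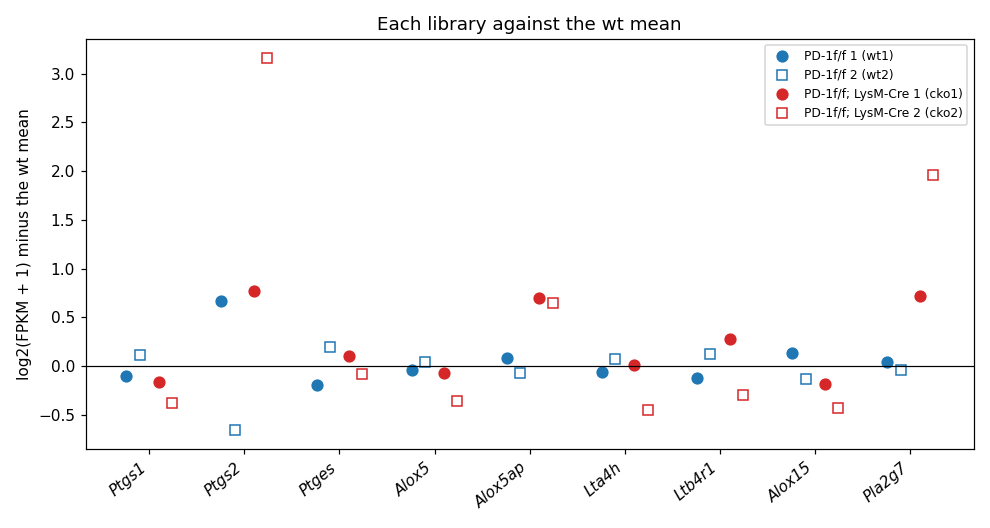
log2(FPKM + 1) of each library minus the wt mean for the 9 tested genes (blue wt, red cko, filled circle replicate 1, open square replicate 2). Ptgs2 and Pla2g7 reach 3.17 and 1.97 in cko2, whereas Alox5ap stands at 0.70 and 0.65 in cko1 and cko2.

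Alox5 encodes 5-lipoxygenase, the first enzyme of leukotriene synthesis (ENSMUSG00000025701, chromosome 6 from 116410077 to 116461178, minus strand, 14 exons). It had 87.5 and 92.2 FPKM in wt1 and wt2 and 85.2 and 69.9 FPKM in cko1 and cko2. Both cko values were below both wt values, cko1 by little. The difference was -0.22 on the log2 scale (standard error 0.16, limma adjusted p = 0.510). Its nearest profiles were those of Rabif, Arel1 and Ncoa3, at distances of 0.027 to 0.035.

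Alox5ap encodes the 5-lipoxygenase activating protein, FLAP, which presents arachidonic acid to the enzyme (ENSMUSG00000060063, chromosome 5 from 149264767 to 149288153, plus strand, 5 exons). It had 30.2 and 27.1 FPKM in wt1 and wt2 (953 and 723 reads) and 47.2 and 45.3 FPKM in cko1 and cko2 (1255 and 1138 reads). The libraries of each group lay close together and the groups apart, with a cko mean 1.61-fold that of wt. The log2 fold change was 0.67 (standard error 0.14), with an unadjusted p of 0.00404 and an adjusted p of 0.210 from limma, so that Alox5ap missed the fold minimum and the adjusted threshold. Its unadjusted p was below 0.05 under all 14 alternatives planned for the fit, where the log2 fold change ran from 0.57 to 0.88 and the adjusted p from 0.116 to 0.615. It was the most even of the 9 genes within groups (SD 0.082 on the log2 scale). The antisense gene Gm19719 shares 13.3% of the Alox5ap exon bases and had 0.426 and 0.666 FPKM in wt and 1.14 and 1.40 FPKM in cko. The sources give no strand setting, so reads of the shared part cannot be told apart.

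The ratio of Alox5ap to Alox5 was 0.345 and 0.293 in wt1 and wt2 and 0.554 and 0.648 in cko1 and cko2, while that of Lta4h to Alox5 stayed between 2.24 and 2.53 in the 4 libraries. Lta4h encodes leukotriene A4 hydrolase, which forms leukotriene B4 (ENSMUSG00000015889, chromosome 10 from 93453411 to 93484875, plus strand, 19 exons). It had 204.5 and 224.6 FPKM in wt1 and wt2 and 215 and 157 FPKM in cko1 and cko2. Only cko2 lay below the others. The log2 fold change was -0.22 (standard error 0.19, limma adjusted p = 0.587). Without cko2 it was 0.0075, and without cko1 it was -0.45 with an unadjusted p under 0.05.

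Ltb4r1 encodes BLT1, the high-affinity receptor through which leukotriene B4 attracts neutrophils (ENSMUSG00000046908, chromosome 14 from 55765962 to 55768494, plus strand, 2 exons). It had 279 and 332 FPKM in wt1 and wt2 and 370 and 248 FPKM in cko1 and cko2. The highest and the lowest value both belonged to cko. The groups differed by -0.01 on the log2 scale (standard error 0.23, limma adjusted p = 0.991), and it was 0.20 with erythroid and hepatocyte genes removed.

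Ltc4s encodes leukotriene C4 synthase, the enzyme that opens the cysteinyl leukotriene branch (ENSMUSG00000020377, chromosome 11 from 50236461 to 50238616, minus strand, 5 exons). It had 3 reads in each wt library and 5 and 14 reads in cko1 and cko2, which are 0.133, 0.157, 0.263 and 0.780 FPKM. The counting intervals reached from 0.0275 to 0.389 FPKM in wt1 and from 0.427 to 1.31 FPKM in cko2, and those of cko1 overlapped with all others. With no filter on low values its log2 fold change was 0.39 (standard error 0.21, limma adjusted p = 0.643). The antisense gene Gm26542 shares 26.4% of its exon bases and had 0.0359 to 0.497 FPKM, so even these few reads are uncertain. Mast cells, basophils and eosinophils are the known producers of leukotriene C4. The part of these cells, whose marker sums are given with Ptgs1, in the Ltc4s value was not tested.

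Alox15 encodes the mouse 12/15-lipoxygenase of eosinophils and resident macrophages (ENSMUSG00000018924, chromosome 11 from 70344152 to 70352031, minus strand, 14 exons). It had 2.66 and 2.06 FPKM in wt1 and wt2 (145 and 95 reads) and 1.94 and 1.47 FPKM in cko1 and cko2 (89 and 64 reads). The cko values were lower, but the counting intervals of wt2 (1.66 to 2.51) and cko1 (1.55 to 2.38) overlapped. The difference was -0.31 on the log2 scale (standard error 0.23, limma adjusted p = 0.525). Alox15 stood at 0.0211 to 0.0304 times the level of Alox5 in the 4 libraries. Of the eosinophil markers, Prg2, which encodes major basic protein, had 190.5 and 110 FPKM in wt and 77.5 and 64.6 FPKM in cko, the same order of libraries as Alox15. Others had another order. The eosinophil peroxidase gene Epx had 8.03 and 2.91 FPKM in wt and 2.53 and 4.32 FPKM in cko, and Siglecf had 8.78 and 5.98 against 9.91 and 8.23 FPKM. The 12 tested markers of mast cells, basophils and eosinophils split into 6 with a positive and 6 with a negative log2 fold change, with a median of -0.03. The part of these cells in the Alox15 values was not tested.

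Pla2g7 encodes platelet-activating factor acetylhydrolase, secreted mainly by macrophages, which breaks down platelet-activating factor and oxidized phospholipids (ENSMUSG00000023913, chromosome 17 from 43568098 to 43612201, plus strand, 12 exons). It had 26.9 and 25.4 FPKM in wt1 and wt2 (1734 and 1391 reads) and 43.5 and 105 FPKM in cko1 and cko2 (2369 and 5397 reads). Both cko libraries were above wt, cko1 at 1.66 times and cko2 at 4.01 times the wt mean. The log2 fold change was 1.34 (standard error 0.40), with an unadjusted p of 0.0170 and an adjusted p of 0.235 from limma. Without cko2 it was 0.71, and without cko1 it was 1.97 and past the threshold of 0.01 with a fold minimum. Without wt1 or without wt2 its unadjusted p was no longer under 0.05. The threshold of 0.01 was also passed by voom on reads and with erythroid and hepatocyte genes removed. The antisense gene 1700071M16Rik shares 11.0% of the Pla2g7 exon bases and had 2.12, 1.49, 2.63 and 10.6 FPKM in wt1, wt2, cko1 and cko2, in the same order of libraries as Pla2g7 from lowest to highest.

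The summed markers of monocytes and macrophages were also highest in cko2, but not every marker was. The 10 monocyte markers summed to 543 and 511 FPKM in wt and 528 and 680 FPKM in cko, and the 14 macrophage markers to 485 and 339 FPKM in wt and 409 and 717 FPKM in cko, none of either list at 0. Of the monocyte markers 9 of 10 were highest in cko2, with log2 fold changes that were positive for 9 and had a median of 0.36. Over all tested genes 6510 of 10779 log2 fold changes were positive, with a median of 0.09. How many of all genes were highest in cko2 was not counted. Csf1r, a receptor gene of monocytes and macrophages, had 40.9, 33.0, 45.6 and 113 FPKM in wt1, wt2, cko1 and cko2, whereas Ly6c2 was lowest in cko2. Of the macrophage markers 6 of 14 were highest in cko2 and 8 in wt1, and the 13 tested split into 7 with a positive and 6 with a negative log2 fold change, with a median of 0.05. Hmox1, which encodes heme oxygenase 1, and the scavenger receptor gene Marco had 257 and 94.0 FPKM in cko2 and made up much of the macrophage sum there. Clec4f and Vsig4, markers of the resident macrophages of the liver, were highest in wt1, with 38.5 and 23.0 FPKM against 33.7 and 17.7 FPKM in cko2. Their part in the values of Ptgs2 and Pla2g7 was not tested. In these bulk libraries fewer cells of a type and less RNA per cell cannot be told apart. For late neutrophils, which carry the leukotriene B4 route, 9 of 11 tested markers had a negative log2 fold change, 6 of them with an unadjusted p under 0.05 (background 4.95%). The other 2, Cxcr2 and Lcn2, were positive at 0.51 and 0.45, both with an unadjusted limma p under 0.05 (background 11.4%). Of the 8 early neutrophil markers 5 were positive, 2 of them with an unadjusted p under 0.05, and 3 were negative, with a median of 0.26. Over these libraries Alox5, Lta4h and Ltb4r1 had log2 fold changes between -0.22 and -0.01 beside a median of -0.52 for the late neutrophil markers. Alox5ap, of the same route, went the other way at 0.67. The part of these cells in the values of these genes was not tested.

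**Figure D3:**
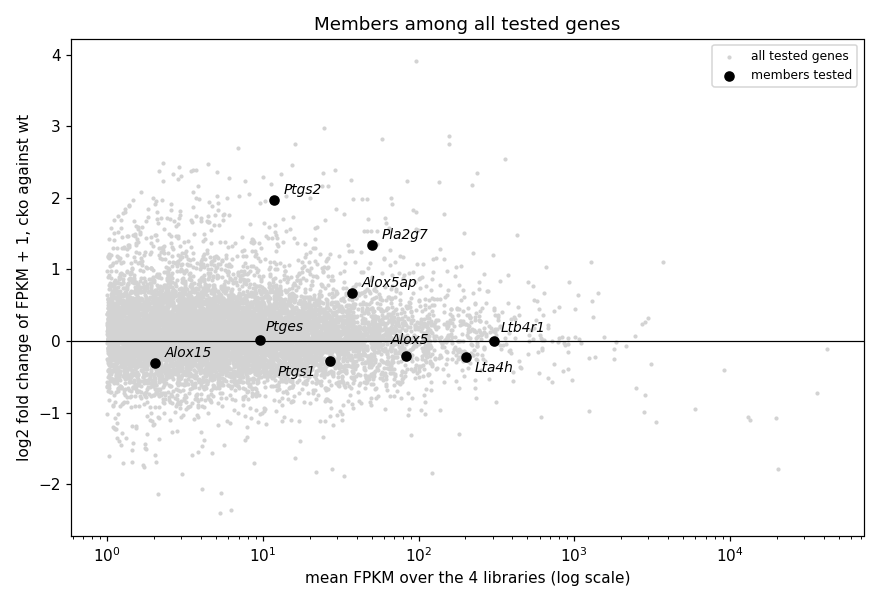
Mean FPKM over the 4 libraries (log axis) against the log2 fold change of FPKM + 1, cko against wt, for the 10779 tested genes (grey) and the 9 tested members (black). Ptgs2, Pla2g7 and Alox5ap lie at 1.97, 1.34 and 0.67, and the other 6 between -0.31 and 0.01.

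**Figure D4:**
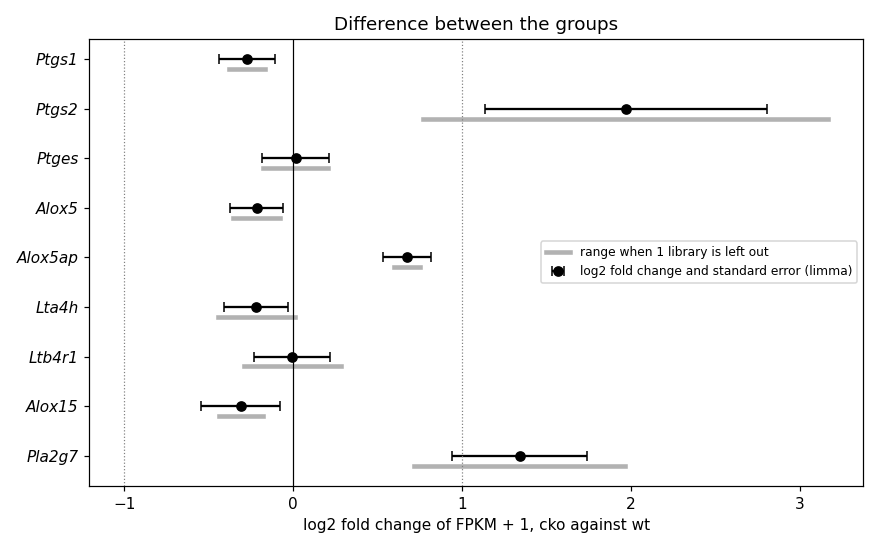
log2 fold change with its standard error (black) and its range when each library is left out in turn (grey) for the 9 tested genes, dotted lines at -1 and 1. The grey range of Ptgs2 reaches from 0.77 to 3.17 and that of Alox5ap from 0.60 to 0.75.

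The neighbouring genes of these routes came from 6 lists with 69 symbols, of which 64 were in the files and 35 were tested. None of the 35 passed |log2FC| above 1 with an unadjusted p under 0.01 (background 2.29%). The unadjusted p was under 0.05 for 5 with a positive log2 fold change (background 11.4%) and by 5 with a negative log2 fold change (background 4.95%). The groups did not overlap for 14 that were higher in cko (background 33.6%) and 7 that were lower (background 18.0%). The median log2 fold change was 0.10, close to the 0.09 of all tested genes.

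Of the 15 genes of arachidonate release 6 were tested, 2 with a positive and 4 with a negative log2 fold change (6510 and 4269 of all 10779 tested genes). The 2 with an unadjusted p under 0.05 were both lower in cko (background 4.95%). Anxa1, which encodes annexin A1, an inhibitor of phospholipase A2 signalling that neutrophils hold in large amounts, had 3871 and 3303 FPKM in wt and 2220 and 2027 FPKM in cko, which is -0.75 on the log2 scale (standard error 0.16, limma adjusted p = 0.205). Mgll, the monoacylglycerol lipase gene, had 7.66 and 9.94 FPKM in wt and 6.25 and 5.53 FPKM in cko (-0.50 on the log2 scale). Acsl4, whose enzyme attaches arachidonic acid to coenzyme A, had 10.9 and 8.80 against 11.9 and 17.1 FPKM (0.50). Pla2g4a, the cytosolic phospholipase A2 gene that supplies both routes, had 8.59 and 5.79 FPKM in wt and 4.79 and 7.53 FPKM in cko, with overlapping groups.

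Of the other prostanoid synthases 3 of 10 were tested and none had an unadjusted p under 0.05. Ptges3, which encodes the cytosolic prostaglandin E synthase p23, had 17.8 and 14.6 FPKM in wt and 17.3 and 19.8 FPKM in cko, above Ptges in each library, and Akr1b3 had 3.02 and 2.34 against 3.67 and 3.72 FPKM. Cbr1, a carbonyl reductase gene, had 4.29 and 1.98 against 1.81 and 3.84 FPKM, with overlapping groups. Among the genes that were not tested, Tbxas1 (thromboxane) reached at most 1.23 FPKM, Hpgds (prostaglandin D) 1.18 FPKM and Ptgis (prostacyclin) 0.124 FPKM, with Ptgis at 0 in 3 libraries.

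Of the other lipoxygenase and leukotriene genes 7 of 14 were tested, 2 of them with an unadjusted p under 0.05 in each direction (background 11.4% higher and 4.95% lower). Cotl1, whose coactosin-like protein binds 5-lipoxygenase, had 1053 and 642 FPKM in wt and 1311 and 1256 FPKM in cko (log2 fold change 0.64, limma adjusted p = 0.295). Ggt1, a gamma-glutamyltransferase gene of the step from leukotriene C4 to D4, had 2.51 and 2.31 against 3.55 and 4.41 FPKM (0.54). Lower in cko were Gpx4, the lipid peroxide reductase gene, with 77.7 and 72.3 against 50.8 and 47.1 FPKM (-0.61, limma adjusted p = 0.212), and Mgst3, with 21.7 and 12.5 against 9.39 and 9.94 FPKM (-0.71). Dpep2 had 0.516 and 0.527 FPKM in wt1 and wt2 and 0.964 and 4.46 FPKM in cko1 and cko2 (log2 fold change 1.11, standard error 0.50, limma adjusted p = 0.345). Alox12, the platelet lipoxygenase gene, stayed below 1 FPKM in all 4 libraries.

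Of the genes of inactivation and transport 8 of 9 were tested. Hpgd encodes 15-hydroxyprostaglandin dehydrogenase, the main enzyme of prostaglandin breakdown, and had 27.1 and 25.6 FPKM in wt and 19.8 and 14.7 FPKM in cko (log2 fold change -0.59, limma adjusted p = 0.249). Cyp4f18, whose cytochrome oxidizes leukotriene B4 in mouse neutrophils, had 38.8 and 39.0 against 32.9 and 47.7 FPKM, with both wt values inside the range of cko, and the sign of its difference turned under median-of-ratios scaling and quantile normalization. Cyp4f16 had 3.82 and 5.16 against 6.63 and 9.57 FPKM (0.72).

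Of the 13 other receptors 4 were tested and none had an unadjusted p under 0.05. Ptger2, a prostaglandin E2 receptor gene, had 8.88 and 8.05 FPKM in wt and 6.91 and 5.999 FPKM in cko, and Ptger4, another such receptor gene, had 0.806 and 0.663 against 1.14 and 2.61 FPKM. Ptgir, the prostacyclin receptor gene, had 6.54 and 11.6 FPKM in wt and 11.8 and 5.61 FPKM in cko, with overlapping groups and a difference whose sign turned with erythroid and hepatocyte genes removed. Cysltr1, a receptor gene for cysteinyl leukotrienes, had 0.971 to 1.48 FPKM. Ltb4r2, the low-affinity leukotriene B4 receptor gene, had at most 0.258 FPKM, beside 248 to 370 FPKM of Ltb4r1.

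Of the genes of platelet-activating factor, the substrate of the Pla2g7 enzyme, 7 of 8 were tested. A positive log2 fold change was found for 6 of the 7, and for 6510 of all 10779 tested genes. Ptafr, which encodes the receptor of platelet-activating factor, had 58.3 and 65.1 FPKM in wt and 97.2 and 150 FPKM in cko. Both cko libraries were above wt (log2 fold change 0.96, standard error 0.23, limma adjusted p = 0.214). Lpcat2, whose enzyme makes platelet-activating factor in stimulated phagocytes, had 70.1 and 95.7 against 85.5 and 156 FPKM, with overlapping groups (0.49). Pafah1b1, which encodes a subunit of the intracellular acetylhydrolase, had 6.59 and 6.23 against 9.41 and 9.38 FPKM (0.49). Both Ptafr and Pla2g7 had their highest value in cko2.

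**Figure D5:**
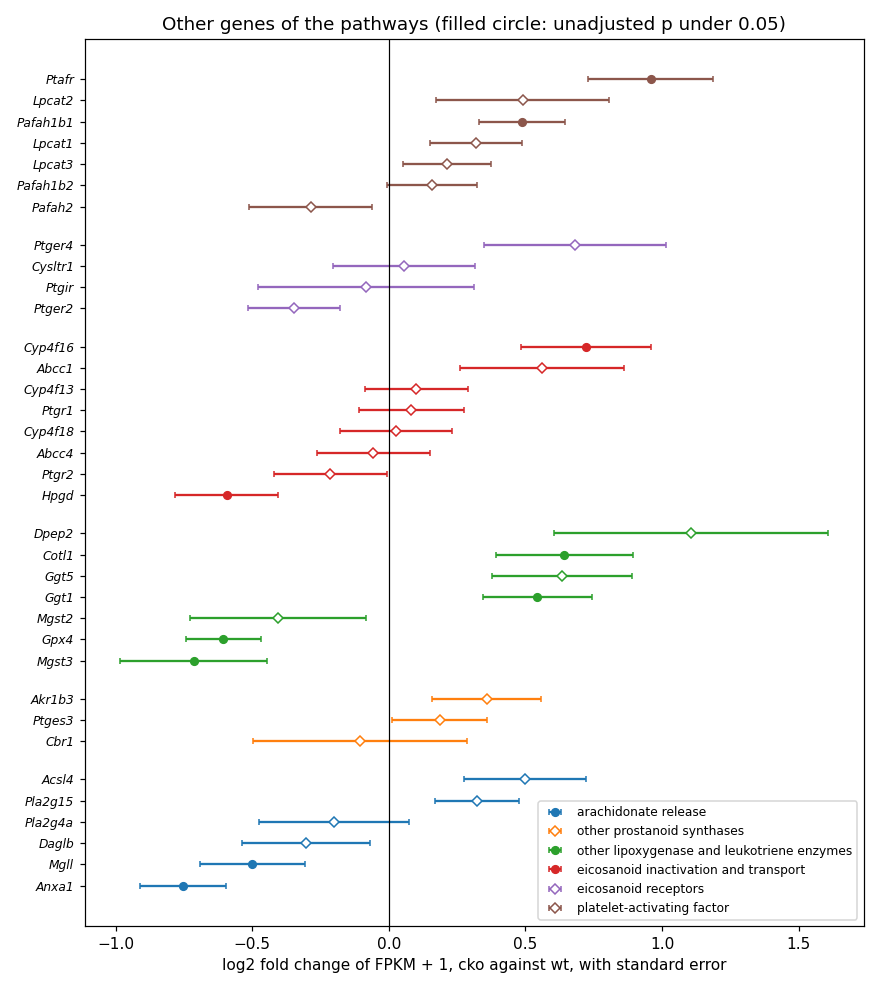
log2 fold change of FPKM + 1, cko against wt, with standard error for the 35 tested genes of the 6 lists, coloured by list (filled circles for an unadjusted p under 0.05 by limma, open diamonds otherwise). Dpep2 lies at 1.11, Ptafr at 0.96 and Anxa1 at -0.75.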

How the data were processed

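The authors deposited FPKM values per gene (called RPKM in the methods), 1 library per file, not scaled between libraries. The submitters' processing notes list Bowtie2 2.2.3, TopHat2 2.0.12, HTSeq 0.6.0 and mm9 without settings. However, 92.61% of the gene positions in the files were identical to GENCODE M21 (GRCm38), which was used here. Library totals were recovered from single-exon genes, whose values were whole multiples of 1 read (tolerance 0.02) in 99.97% to 100% of cases, and reads for 91.29% of genes by annotated length, among them all 10 members. Groups followed the labels.

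Groups were compared by limma 3.58.1 under R 4.3.3 (eBayes with a trend, pseudocount 1, minimum mean 1 FPKM, no covariates), checked on simulated reads. Both thresholds came from the study. Alternatives changed the pseudocount (0.1, 0.01), the minimum (none, 5 FPKM) and the scaling. The scaling was by median of ratios, by quantiles, or to an equal FPKM sum per library without erythroid and hepatocyte list genes. Other alternatives dropped the trend, blocked on replicate number, or used voom on reads (mean of 10 or more), an unadjusted p under 0.05, and each library left out in turn. Members and lists were chosen with earlier results of these data known. Genes named are the members, and of each list the tested genes with an unadjusted p under 0.05 and the 2 with the highest mean, Pdcd1 and Lyz2, and the 3 nearest profiles of Ptgs1, Ptgs2 and Alox5. Pla2g4a, Ptger4, Cysltr1, Ltb4r2, Alox12, Dpep2, Tbxas1, Hpgds, Ptgis, Cbr1 and the marker genes were named after their values were seen. Python 3.11.15 and matplotlib 3.10.9 were used for tables and plots. Promoters are RefSeq sequences (GRCm38.p6).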

Additional observations from a re-analysis of the deposited data

How the results depend on the processing

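The number of the 9 tested members called (|log2FC| above 1, unadjusted p under 0.01) was 0. It was 1 (Pla2g7) with erythroid and hepatocyte genes removed and by voom, 2 (Alox5ap and Pla2g7) by an unadjusted p under 0.05 with no fold minimum, and 0 to 2 when each library was left out, with Ptgs2 and Pla2g7 called without cko1. Among the 35 pathway genes the count of 0 became 1 (Ptafr) with erythroid and hepatocyte genes removed, 10 by an unadjusted p under 0.05, and 0 to 2 on leaving out libraries (Mgst3 without wt2, Dpep2 and Ptafr without cko1). Over all genes 247 became 126 with a minimum of 5 FPKM, where fewer genes were tested, 1768 by an unadjusted p under 0.05, and 131 to 462 on leaving out libraries (147 without wt1, 462 without cko1, 131 without cko2). The cause of the other differences was not tested. Quantile normalization moved the median log2 fold change of all genes from 0.09 to -0.02, and the setting with erythroid and hepatocyte genes removed moved it to 0.27. The latter setting also made the FPKM sums of the libraries equal. Before it they were 491983 and 457127 in wt1 and wt2 and 412778 and 403900 in cko1 and cko2. The effects of the removal and of the scaling were not tested separately.

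Signs were followed for the members and for the pathway genes named by p or by mean. They turned for Ptges, Lta4h, Ltb4r1, Cyp4f18 and Ptgir, whose reported log2 fold changes lay between -0.22 and 0.03. The signs of Pla2g4a, Ptger4, Cysltr1, Dpep2 and Cbr1, named after their values were seen, were not followed under the alternatives. Under median-of-ratios scaling and quantile normalization Ptges stood at -0.084 and -0.089 and Cyp4f18 at -0.079 and -0.060, and with erythroid and hepatocyte genes removed Ltb4r1 stood at 0.20 and Ptgir at 0.10. On leaving out libraries Ptges ranged from -0.18 to 0.20, Lta4h from -0.45 to 0.0075, Ltb4r1 from -0.29 to 0.28, Cyp4f18 from -0.24 to 0.29 and Ptgir from -0.56 to 0.40. With the replicate block 258 genes passed in all and 0 members, and no call of a member changed. The numbers are not said to pair the libraries, and the differences between replicates 1 and 2 of both groups correlated at -0.163 across genes. With the numbers crossed, chosen after seeing the data, 363 genes passed, 2 of them members. The 3 to 14 reads of Ltc4s limit its value, which was 0.39 on the log2 scale and 1.21 with a pseudocount of 0.1.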
